A study of Mus musculus with 6 samples.

Results

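The genes described here are 31 mouse genes of DNA replication and S phase, the part of the cell cycle in which the genome is copied. They were taken by name from a table of 22483 genes, and all 31 were found in it. The list holds 8 genes of origin licensing, 3 of helicase activation, 5 of the polymerases, clamp and clamp loader, 2 of Okazaki fragment maturation, 5 of deoxynucleotide supply, 5 that act on chromatin and DNA methylation at the fork, and 3 regulators of the G1/S transition.

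The study sorted stromal cells, the connective tissue cells that lie between muscle fibers, from the hind limb muscle of 8 to 12 week old Swiss white mice. The injured muscle was taken on day 3 after an injection of 20 uM cardiotoxin, a venom toxin that lyses muscle fibers, and the control muscle was the untreated muscle of the opposite leg. Cells that carried CD45, CD31 or CD11b (leukocytes, endothelial cells and myeloid cells) were gated out, and the rest were sorted on CD140a (product of Pdgfra) and Sca1 (product of Ly6a). The 3 sorted subpopulations are CD140a(-)/Sca1(+) cells, CD140a(+)/Sca1(-) cells and those positive for both, CD140a(+)/Sca1(+). Each of the 3 subpopulations has 1 library from injured and 1 from control muscle, 6 in all, so within a subpopulation 1 library is set against 1 library, and across subpopulations the 3 pairs stand in for replicates. No genotype or transgene is named for the mice. The number of mice behind each library is not given in the sources used here. By the labels the muscle was the tibialis anterior, but the text of the study has gastrocnemius and soleus for acute injury. Before the sort, the cells of both states were kept in a warm recovery incubation for their surface markers. The study also followed BrdU, a thymidine analog that marks newly copied DNA. Those flow cytometry data were not analysed here, and an RNA level is not a count of cells in S phase.

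Cells prepare for S phase in G1 by loading the Mcm2 to Mcm7 helicase onto replication origins with the help of Cdc6 and Cdt1. At the start of S phase Cdc45 and the GINS complex join the helicase and unwind the DNA, polymerases copy it with the sliding clamp PCNA, and flap endonuclease and ligase join the short fragments of the lagging strand. E2F factors are held back by the Rb family until cyclins and their kinases become active in G1. These factors switch on many of these genes, so the whole set is commonly read as a sign of proliferation. In skeletal muscle, stromal progenitors are known to divide in the first days after a toxin injury.

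The promoters of these genes are shown because E2F factors bind the letters TTTGGCGC, TTTGCCGC, TTTCGCGC or TTTCCCGC, and the windows let a reader see where such letters stand in members that did and did not rise after injury. Promoter sequence came from RefSeq (build GRCm38.p6), and the 250 bases before each RefSeq start were searched on both strands. These starts differ from the GENCODE spans, some of which are given further on. Of the 31 windows searched, 19 have at least 1 base inside the GENCODE gene and 8 lie wholly inside it. Among these 8 are the windows of Cdc6, Dut and E2f1, both of Mcm7 and the matched one of Uhrf1. Matches in Cdc6, Mcm7 and Uhrf1 are thus among those inside the gene. In the window of Hells 75 bases lie inside, and 13 in that of Rrm2. The table holds 26 of the 31 members, and Mcm4, Gins1, Gins2, Pole and Ccne2 are not in it. It gives these 26 genes 31 windows, 3 for Lig1, 2 each for Mcm7, Uhrf1 and Fen1 and 1 for each other gene, and a gene counts as matched if any window holds a form. At least 1 of the 4 forms was found for 9 of these 26 genes (34.6%), each in 1 window, namely Mcm5, Mcm6, Mcm7, Cdc6, Pola1, Rfc3, Uhrf1, Hells and Cdca7. Among all 27025 genes of the table, counted in the same way, 2.16% had a form. With only the forms TTTGGCGC and TTTCCCGC, 7 of the 26 members (26.9%) had a match, against 1.51% of all genes of the table. Forms on opposite strands can overlap, as in Mcm5 and Mcm6, where 2 matches share bases. The last 160 bases before the start are printed below in the direction of transcription, with every match in capitals, for Mcm5 (chr8:75109349-75109508 on the plus strand), Mcm6 (chr1:128359706-128359865 on the minus strand), Cdc6 (chr11:98907991-98908150 on the plus strand), Hells (chr19:38930830-38930989 on the plus strand) and Rrm2 (chr12:24708094-24708253 on the plus strand).
Mcm5: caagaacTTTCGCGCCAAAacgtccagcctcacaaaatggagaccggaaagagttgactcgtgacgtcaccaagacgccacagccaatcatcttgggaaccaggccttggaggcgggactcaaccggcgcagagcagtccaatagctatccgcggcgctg
Mcm6: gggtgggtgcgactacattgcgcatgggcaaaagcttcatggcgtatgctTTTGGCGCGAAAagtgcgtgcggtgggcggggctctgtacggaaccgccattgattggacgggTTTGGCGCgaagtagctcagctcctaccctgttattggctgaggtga
Cdc6: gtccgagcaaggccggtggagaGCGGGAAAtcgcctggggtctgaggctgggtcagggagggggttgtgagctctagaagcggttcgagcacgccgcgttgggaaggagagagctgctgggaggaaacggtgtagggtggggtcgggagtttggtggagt
Hells: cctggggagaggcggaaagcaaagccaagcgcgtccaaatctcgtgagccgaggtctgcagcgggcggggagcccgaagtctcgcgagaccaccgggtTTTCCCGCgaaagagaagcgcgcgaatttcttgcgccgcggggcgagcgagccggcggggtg
Rrm2: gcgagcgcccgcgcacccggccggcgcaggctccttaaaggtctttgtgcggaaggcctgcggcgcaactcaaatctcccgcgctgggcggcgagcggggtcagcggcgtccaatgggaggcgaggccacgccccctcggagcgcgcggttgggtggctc
Counted from the first base of the match to the RefSeq start, the matches lay at 153 and 149 bases in Mcm5, at 110, 106 and 47 bases in Mcm6, at 138 bases in Cdc6 and at 62 bases in Hells. Rrm2 had no match in its window, which says only that these letters are not there. Over the other members with a match the distance was between 10 bases, in Rfc3, and 185 bases, in Uhrf1. Of the members called higher after injury further on, Mcm5 and Hells had a match. Cdc45, Rrm1, Rrm2, Dut and E2f1 had none, and Mcm4 had no window. The rest of the genes with a match were not called. Most sequences printed above hold a match, while most member genes searched do not. A link between these letters and a rise after injury was not tested.

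Reads come from transcript 3' ends, and values below are normalized counts recovered from the deposited log2 scale. Estimated depth was between 2094355 and 14173542 reads a library, a ratio of 6.77, and 1 read is worth 0.146 to 0.981 normalized counts. The injured CD140a(+)/Sca1(-) library stood apart from the others. It is the shallowest, it lists 69.1% of the genes at 0 against 28.2% to 39.0% in the other 5, and it lists 928 genes at 0 among the 5274 that reach 20 normalized counts in all of the others. In every other library at most 2 genes chosen in the same way were listed at 0. The main counts of members that rest on it are given with and without it, while most fitted changes of single genes are given with it alone. At their 3' ends Gins2 and Cdt1 overlap the longer gene Gm20388, Gins2 also Gse1, Tk1 Gm20708 and Fen1 Gm10143, so counting could have split or dropped their reads.

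The sort markers did not all follow their labels, and the subpopulations are called by their labels below. Pdgfra, which encodes CD140a, had 335 normalized counts in injured and 211 in control CD140a(-)/Sca1(+) cells, 203 against 33.6 in CD140a(+)/Sca1(-) cells and 1240 against 26.3 in CD140a(+)/Sca1(+) cells. The control library labelled CD140a(-) thus had a higher Pdgfra level than both control libraries labelled CD140a(+). Ly6a, which encodes Sca1, had 1177 normalized counts in injured and 5850 in control CD140a(-)/Sca1(+) cells, 2.09 against 70.4 in CD140a(+)/Sca1(-) cells and 4099 against 253 in CD140a(+)/Sca1(+) cells, and was lowest in both Sca1(-) libraries. The collagen genes Col1a1 and Col1a2 and Dcn, markers of stromal cells, were read in every library. Of the 8 stromal markers used, only Pdgfrb was listed at 0, in injured CD140a(+)/Sca1(-) cells. Dcn had 524 normalized counts in control CD140a(+)/Sca1(+) cells, against 3552 and 4139 in the other controls. Cd34 was lower after injury in both CD140a(+) subpopulations and higher in the CD140a(-) one.

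Across the 6 libraries, the S phase genes were highest in injured CD140a(+)/Sca1(+) cells. That library held the highest value of 29 of the 31 members, and of 28 of the 30 that passed the filter on low values, where 21.3% of all 15532 genes tested had their highest value in it. The exceptions were Cdc45 and Tyms, both highest in injured CD140a(+)/Sca1(-) cells, the library that was highest for 14.2% of all genes tested. Without the 2 CD140a(+)/Sca1(-) libraries, injured CD140a(+)/Sca1(+) cells were highest for all 30 tested members, against 29.2% of all genes tested. With all 6 libraries the control CD140a(+)/Sca1(+) library was highest for 0 members, against 20.1%. These counts come from 1 library each and carry no test.

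Summed over the 31 members, the normalized counts were 2103 in injured and 1809 in control CD140a(-)/Sca1(+) cells, a ratio of 1.16. In CD140a(+)/Sca1(-) cells the sums were 3082 and 1444, a ratio of 2.14. In CD140a(+)/Sca1(+) cells they were 8329 and 1822, a ratio of 4.57. Pcna made up a large share of each sum, and without it the ratios were 1.43, 2.50 and 7.91 in the same order of subpopulations. The control sums thus lay within a narrow range while the injured ones did not. In bulk libraries, more cells of a kind and more RNA per cell cannot be told apart, and neither can fewer cells and less RNA.

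**Figure D1:**
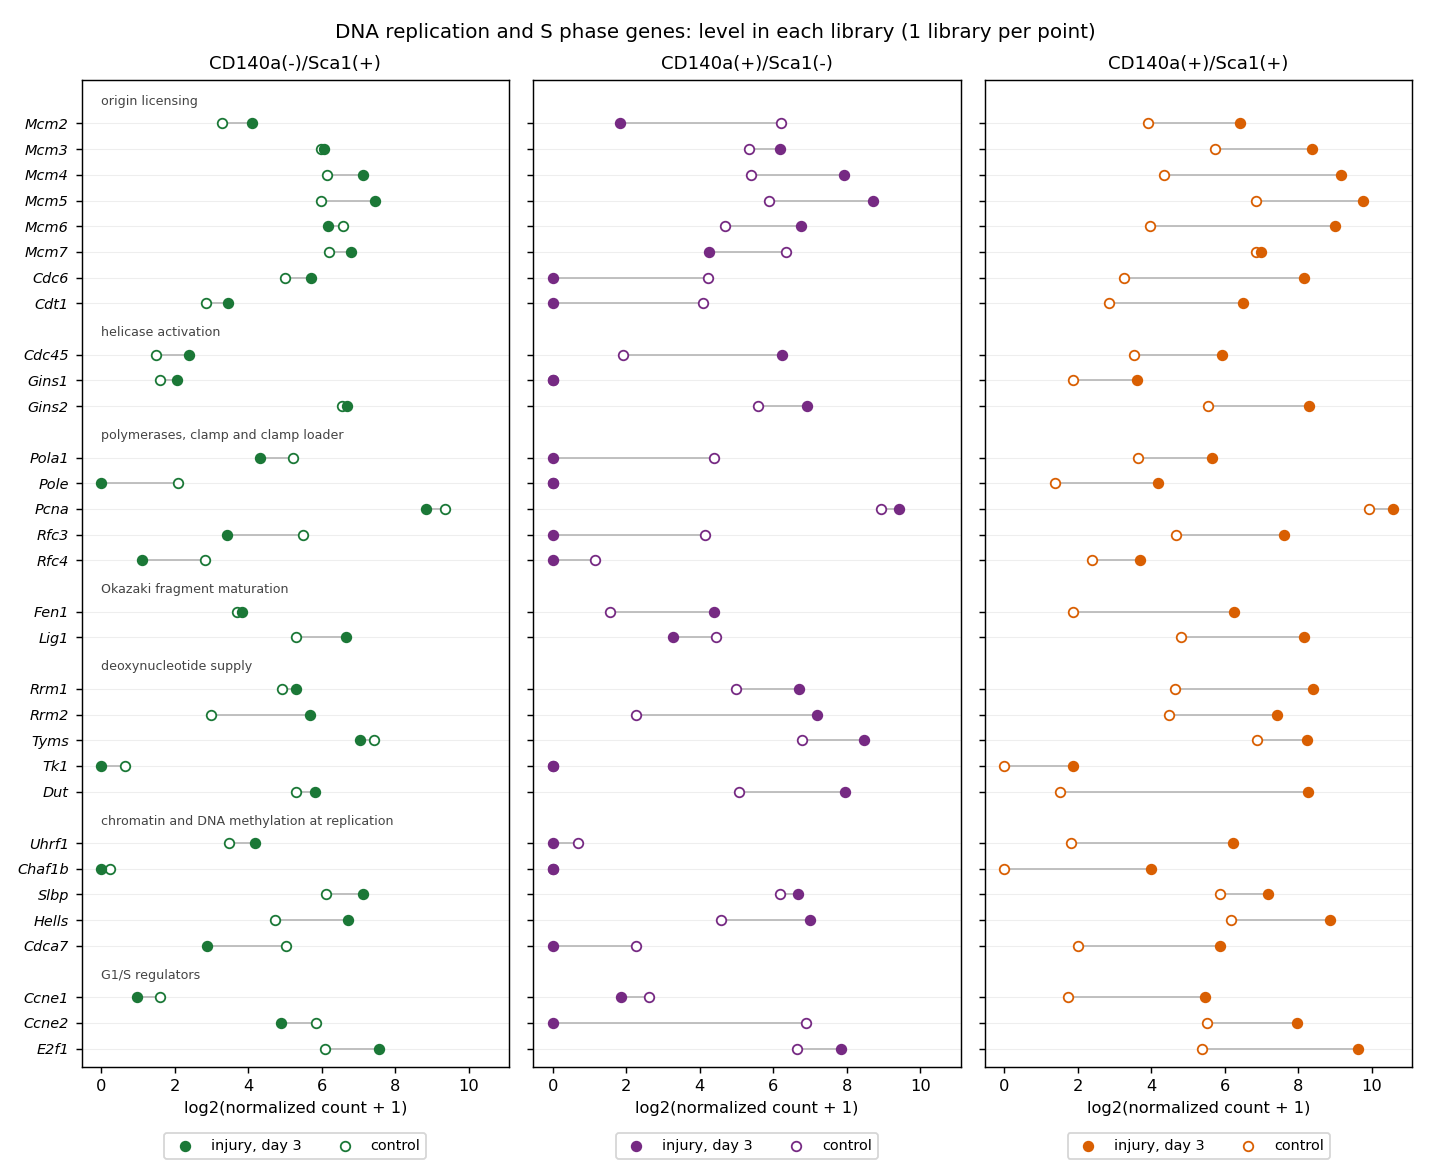
Level of each of the 31 genes as log2(normalized count + 1), injured library filled and control library open, 1 panel per subpopulation and 1 library per point. In CD140a(+)/Sca1(+) cells every filled point lies to the right of its open point, while in CD140a(+)/Sca1(-) cells 12 filled points lie at 0.

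Among the control libraries no subpopulation was highest throughout. CD140a(-)/Sca1(+) cells had the highest control value for 17 members, and CD140a(+)/Sca1(-) and CD140a(+)/Sca1(+) cells for 7 each. Among the injured libraries, CD140a(-)/Sca1(+) cells were highest for 0 of the 31. Shares of all genes within 1 state were not computed, so these counts have no like background. Over all 6 libraries the controls were highest for 17.8%, 14.7% and 20.1% of all genes tested, in the order of subpopulations just given. Injured CD140a(-)/Sca1(+) cells were highest for 11.9%.

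The injury comparison used limma on all 6 libraries with the subpopulation as block, and a gene was called at a p under 0.05 and at least a 3-fold change. Of the 30 tested members 8 rose after injury, namely Mcm4, Mcm5, Cdc45, Rrm1, Rrm2, Dut, Hells and E2f1, where 2.3% of all genes tested were called higher. No tested member fell (0 of 30), where 3.46% of all genes tested were called lower. The median member change was 0.84 on the log2 scale, against -0.33 over all genes tested. Without the CD140a(+)/Sca1(-) pair these medians were 1.25 and -0.05. Members with all 3 injury libraries above all 3 control libraries numbered 11 of 30, against 4.18% of all genes tested, and 0 had the reverse, against 11.2%. Without the CD140a(+)/Sca1(-) pair 17 of 30 did not overlap in that way, against 15.5%. A higher value after injury in each of the 3 pairs was seen for 12 of 30 members, against 7.92%, and a lower value in each for 0, against 20.2%. In both Sca1(+) pairs 19 of 30 were higher, against 22.3%, and 0 lower, against 29%. Without the CD140a(+)/Sca1(-) pair 11 members were called higher, where the background was 2.94%: Mcm6, Cdc6, Lig1 and Uhrf1 came in and Cdc45 went out. At the stricter p under 0.01, with the same fold, Mcm5, Rrm2 and Hells were called (3 of 30), against 0.927% of all genes tested higher, and 0 of 30 fell, against 1.18% lower. After Benjamini-Hochberg adjustment over the 15532 genes no member and no gene (0, 0%) had an adjusted p under 0.05 in limma, while 1241 genes (7.99%) had an unadjusted p under 0.05.

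Of the 8 origin licensing genes Mcm4 and Mcm5 rose. Mcm5 (chr8:75109569-75128439), a subunit of the Mcm2 to Mcm7 helicase, had 174 normalized counts in injured and 62.6 in control CD140a(-)/Sca1(+) cells, 419 against 58.5 in CD140a(+)/Sca1(-) cells and 866 against 115 in CD140a(+)/Sca1(+) cells. Every injured library lay above every control library. The fitted rise was 2.25 on the log2 scale (SE 0.54, limma adjusted p = 0.436).

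Mcm4 (chr16:15623897-15637400), another subunit, had 140 normalized counts in injured and 69.2 in control CD140a(-)/Sca1(+) cells, 243 against 41.1 in CD140a(+)/Sca1(-) cells and 567 against 19.4 in CD140a(+)/Sca1(+) cells. The injured and control values did not overlap, and the gap was widest in CD140a(+)/Sca1(+) cells, where the fold was 29.2 (95% Poisson interval 19.2 to 46.8). Mcm4 rose by 2.49 on the log2 scale (SE 0.73, limma adjusted p = 0.508).

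The other subunits were not called. Mcm6 had 71.4 normalized counts in injured and 95.3 in control CD140a(-)/Sca1(+) cells, 107 against 24.8 in CD140a(+)/Sca1(-) cells and 508 against 14.7 in CD140a(+)/Sca1(+) cells, with a fitted change of 1.91 (SE 0.92, limma adjusted p = 0.649). It was higher in both CD140a(+) subpopulations and lower in the CD140a(-) one. Mcm3 had 66.5 against 62.4, 71.6 against 39.8 and 330 against 52.1 normalized counts in injured and control cells of the subpopulations in that order, with a fitted change of 1.07 (SE 0.62, limma adjusted p = 0.680). Its values did not overlap between the states, although the CD140a(-)/Sca1(+) libraries differed by less than counting error (fold 1.07, 95% Poisson interval 0.923 to 1.23).

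Mcm2 had 16.2 normalized counts in injured and 8.75 in control CD140a(-)/Sca1(+) cells, 2.59 against 72.8 in CD140a(+)/Sca1(-) cells and 84.5 against 14.0 in CD140a(+)/Sca1(+) cells. It was higher after injury in both Sca1(+) subpopulations and much lower in the Sca1(-) one, and its fitted change was -0.13 (SE 0.95, limma adjusted p = 0.972), or 1.25 without the CD140a(+)/Sca1(-) pair. Mcm7 had 109 against 72.0, 18.2 against 79.8 and 126 against 115 normalized counts in injured and control cells in the same order, and a fitted change of -0.34 (SE 0.61, limma adjusted p = 0.857), or 0.33 without that pair. In CD140a(+)/Sca1(-) cells 4 of the 6 subunits were thus higher after injury and 2 lower, from 1 library against 1. The injured value of Mcm2 rests on an estimated 2.64 reads, and 29.4% of all genes tested were at least 3-fold lower in that pair. Mcm7 shares 64 bases with Cops6 at its 3' end, and the strand used in counting is not stated, so reads of the pair may be shared.

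The loaders Cdc6 and Cdt1 had the pattern of Mcm2, higher after injury in both Sca1(+) subpopulations and lower in the Sca1(-) one. Cdc6, which brings the helicase to the origin, had 51.2 normalized counts in injured and 30.9 in control CD140a(-)/Sca1(+) cells and 285 against 8.61 in CD140a(+)/Sca1(+) cells, and in CD140a(+)/Sca1(-) cells it was listed at 0 in the injured library against 17.5 in the control one. Cdt1, its partner, had 9.94 against 6.19 and 88.5 against 6.18 in the Sca1(+) subpopulations and was listed at 0 against 16.1 in CD140a(+)/Sca1(-) cells. Neither was called across the 3 pairs.

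Of the helicase activation genes, Cdc45 was called. Cdc45 (chr16:18780447-18811987), which joins the helicase at the start of S phase, had 4.29 normalized counts in injured and 1.84 in control CD140a(-)/Sca1(+) cells, 74.8 against 2.80 in CD140a(+)/Sca1(-) cells and 59.4 against 10.6 in CD140a(+)/Sca1(+) cells. It was higher after injury in each subpopulation, but the injured CD140a(-)/Sca1(+) value lay below the control CD140a(+)/Sca1(+) value. It rose by 1.69 on the log2 scale (SE 0.63, limma adjusted p = 0.592), and by 1.09 with no call without the CD140a(+)/Sca1(-) pair. Gins2, a subunit of GINS, had 102 against 92.6, 121 against 46.9 and 311 against 45.9 normalized counts in the 3 subpopulations in the same order and was not called (1.27, SE 0.61, limma adjusted p = 0.649). Gins1, another subunit, was low throughout, at 11.1 normalized counts or less.

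The genes of deoxynucleotide supply gave 3 of the 8 calls. Rrm2 (chr12:24708241-24714146), the S phase subunit of ribonucleotide reductase, which makes deoxynucleotides, had 50.6 normalized counts in injured and 6.93 in control CD140a(-)/Sca1(+) cells, 145 against 3.85 in CD140a(+)/Sca1(-) cells and 169 against 21.2 in CD140a(+)/Sca1(+) cells. The lowest injured value was above the highest control value, and the folds were 7.29, 37.7 and 7.98 (95% Poisson intervals 5.19 to 10.5, 16.9 to 104 and 5.27 to 12.6). Rrm2 rose by 2.66 on the log2 scale (SE 0.55, limma adjusted p = 0.385), which was the lowest p of the members.

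Rrm1 (chr7:102441695-102469771), the large subunit of the same enzyme, had 38.2 normalized counts in injured and 29.4 in control CD140a(-)/Sca1(+) cells, 103 against 30.8 in CD140a(+)/Sca1(-) cells and 338 against 23.8 in CD140a(+)/Sca1(+) cells. Its values did not overlap between the states, with a small gap in CD140a(-)/Sca1(+) cells and a wide one in CD140a(+)/Sca1(+) cells. Rrm1 rose by 1.69 on the log2 scale and sat at the edge of the threshold (SE 0.69, limma adjusted p = 0.623).

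Dut (chr2:125247190-125258608), the dUTPase that keeps uracil out of DNA, had 55.2 normalized counts in injured and 38.7 in control CD140a(-)/Sca1(+) cells, 246 against 32.5 in CD140a(+)/Sca1(-) cells and 304 against 1.86 in CD140a(+)/Sca1(+) cells. The states did not overlap, and the last of these folds was the largest of any member (163, 95% Poisson interval 46.3 to 1246), with few reads in the control library. Dut rose by 2.64 on the log2 scale (SE 0.88, limma adjusted p = 0.560). Tyms, which makes thymidylate, had 130 against 172, 356 against 108 and 299 against 117 normalized counts in the 3 subpopulations in the same order and was not called (0.84, SE 0.59, limma adjusted p = 0.692). Tk1, the thymidine salvage kinase, was at 2.65 normalized counts in injured CD140a(+)/Sca1(+) cells and at 0.562 or listed at 0 elsewhere, which is too low to compare.

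The polymerase, clamp and clamp loader genes gave 0 calls, and their median fitted change was -0.23. Pcna, the sliding clamp, had 455 normalized counts in injured and 656 in control CD140a(-)/Sca1(+) cells, 686 against 486 in CD140a(+)/Sca1(-) cells and 1522 against 961 in CD140a(+)/Sca1(+) cells. Its control values were among its injured values, and the fitted change was 0.21 (SE 0.52, limma adjusted p = 0.900). A processed copy, Pcna-ps2, was counted separately at up to 29.7 normalized counts, so reads of the pair may have been split.

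Pola1, the catalytic subunit of the polymerase that primes synthesis, had 18.9 against 36.0 normalized counts in injured and control CD140a(-)/Sca1(+) cells and 49.3 against 11.5 in CD140a(+)/Sca1(+) cells, and was listed at 0 against 19.9 in CD140a(+)/Sca1(-) cells. Rfc3, a subunit of the clamp loader, had 9.79 against 43.9 and 192 against 24.7 in the Sca1(+) subpopulations and was listed at 0 against 16.7 in CD140a(+)/Sca1(-) cells. Both were lower after injury in CD140a(-)/Sca1(+) cells beyond counting error (folds 0.524 and 0.223, 95% Poisson intervals 0.416 to 0.658 and 0.168 to 0.294) and higher in CD140a(+)/Sca1(+) cells. Pole, the leading strand polymerase, and Rfc4, another loader subunit, were at 17.3 normalized counts or less in every library, and Rfc4 overlaps Eif4a2 at its 3' end.

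Of the genes that mature Okazaki fragments neither was called. Fen1, the flap endonuclease, had 13.3 against 12.0, 19.9 against 1.95 and 75.1 against 2.68 normalized counts in injured and control cells of the 3 subpopulations in the same order (1.52, SE 0.66, limma adjusted p = 0.636). Lig1, the ligase that seals the fragments, had 101 against 38.5, 8.68 against 20.6 and 284 against 26.8 (1.13, SE 0.78, limma adjusted p = 0.688). Fen1 did not overlap between the states, and Lig1 was lower after injury only in CD140a(+)/Sca1(-) cells.

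Among the chromatin genes Hells was called. Hells (chr19:38930915-38971051), a remodeling ATPase needed for DNA methylation, had 104 normalized counts in injured and 25.3 in control CD140a(-)/Sca1(+) cells, 128 against 22.8 in CD140a(+)/Sca1(-) cells and 463 against 70.8 in CD140a(+)/Sca1(+) cells. The states did not overlap, and the folds were 4.11, 5.59 and 6.54 (95% Poisson intervals 3.41 to 4.97, 3.83 to 8.35 and 5.20 to 8.32). Hells rose by 2.08 on the log2 scale (SE 0.49, limma adjusted p = 0.431).

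Cdca7, which works with Hells on chromatin, did not follow it. It had 6.32 normalized counts in injured and 31.8 in control CD140a(-)/Sca1(+) cells, was listed at 0 against 3.81 in CD140a(+)/Sca1(-) cells, and had 57.8 against 2.99 in CD140a(+)/Sca1(+) cells, with a fitted change near 0. Uhrf1, which guides methylation to newly copied DNA, had 17.1 against 10.2, 0 against 0.605 and 73.8 against 2.49 in the same order and was not called (0.97, SE 0.75, limma adjusted p = 0.705). Slbp, which binds the stem-loop of histone mRNAs, had 139 against 68.4, 101 against 71.7 and 142 against 57.1, all higher after injury by less than 3-fold, and was not called (0.84, SE 0.49, limma adjusted p = 0.680). Chaf1b, a subunit of the CAF-1 histone chaperone, was the 1 member that did not pass the filter: it had 14.8 normalized counts in injured CD140a(+)/Sca1(+) cells, 0.190 in control CD140a(-)/Sca1(+) cells and was listed at 0 in the other 4 libraries.

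Of the G1/S regulators E2f1 was called. E2f1 (chr2:154559407-154569892), the activating factor that drives many S phase genes, had 187 normalized counts in injured and 67.6 in control CD140a(-)/Sca1(+) cells, 229 against 98.9 in CD140a(+)/Sca1(-) cells and 786 against 40.6 in CD140a(+)/Sca1(+) cells. The states did not overlap, and the fold was 19.4 in CD140a(+)/Sca1(+) cells (95% Poisson interval 14.4 to 26.6), against 2.76 and 2.31 in the other subpopulations. E2f1 rose by 2.13 on the log2 scale (SE 0.70, limma adjusted p = 0.557).

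The E cyclins, which activate Cdk2, were not called. Ccne1 had 0.980 against 2.02, 2.62 against 5.15 and 43.1 against 2.36 normalized counts in injured and control cells of the 3 subpopulations in the same order. Ccne2 had 28.7 against 56.2 in CD140a(-)/Sca1(+) cells, was listed at 0 against 118 in CD140a(+)/Sca1(-) cells, and had 248 against 45.0 in CD140a(+)/Sca1(+) cells. Both were higher after injury in CD140a(+)/Sca1(+) cells alone, and Ccne2 overlaps Ints8 at its 3' end.

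Within each subpopulation the comparison is between 2 libraries, with no test. In CD140a(-)/Sca1(+) cells 2 of the 30 tested members, Rrm2 and Hells, were at least 3-fold higher on the deposited log2 scale, where 1.97% of all genes tested were, and 0 were at least 3-fold lower, where 4.35% were. The median member change was 0.24, against -0.23 over all genes tested. On normalized counts, whose folds are larger than those of the deposited scale at low levels, the lowest among the members read in both libraries were those of Rfc4 (0.191), Cdca7 (0.199) and Rfc3 (0.223), each with a 95% Poisson interval below 1. Pole, Tk1 and Chaf1b were listed at 0 in the injured library, against 3.29, 0.562 and 0.190 normalized counts in the control one.

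In CD140a(+)/Sca1(-) cells 8 members were at least 3-fold higher, where the background was 8.31%, and 7 at least 3-fold lower, where it was 29.4%. The median member change was 0.22, against -0.77 over all genes tested. Those higher were Mcm4, Mcm5, Mcm6, Cdc45, Rrm2, Tyms, Dut and Hells, and those lower were Mcm2, Mcm7, Cdc6, Cdt1, Pola1, Rfc3 and Ccne2. Of the lower ones only Mcm2 and Mcm7 had reads in the injured library.

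In CD140a(+)/Sca1(+) cells 21 members were at least 3-fold higher, where the background was 10.4%, and 0 at least 3-fold lower, where it was 6.07%. The median member change was 2.50, against 0.11 over all genes tested. On normalized counts the median fold of the 29 members read in both libraries was 7.78, and the 95% Poisson interval lay above 1 for 28 of them. The exception was Mcm7, at a fold of 1.09 (0.880 to 1.37). Pcna, the most abundant member there, was 1.58-fold higher (1.48 to 1.70). The share of all genes with such an interval was not computed, and the intervals leave out scaling. Scaled by the median of expressed genes, the injured library had a factor of 1.06 and the control one 0.822. Values are divided by these factors, so every fold of this pair would be smaller.

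**Figure D2:**
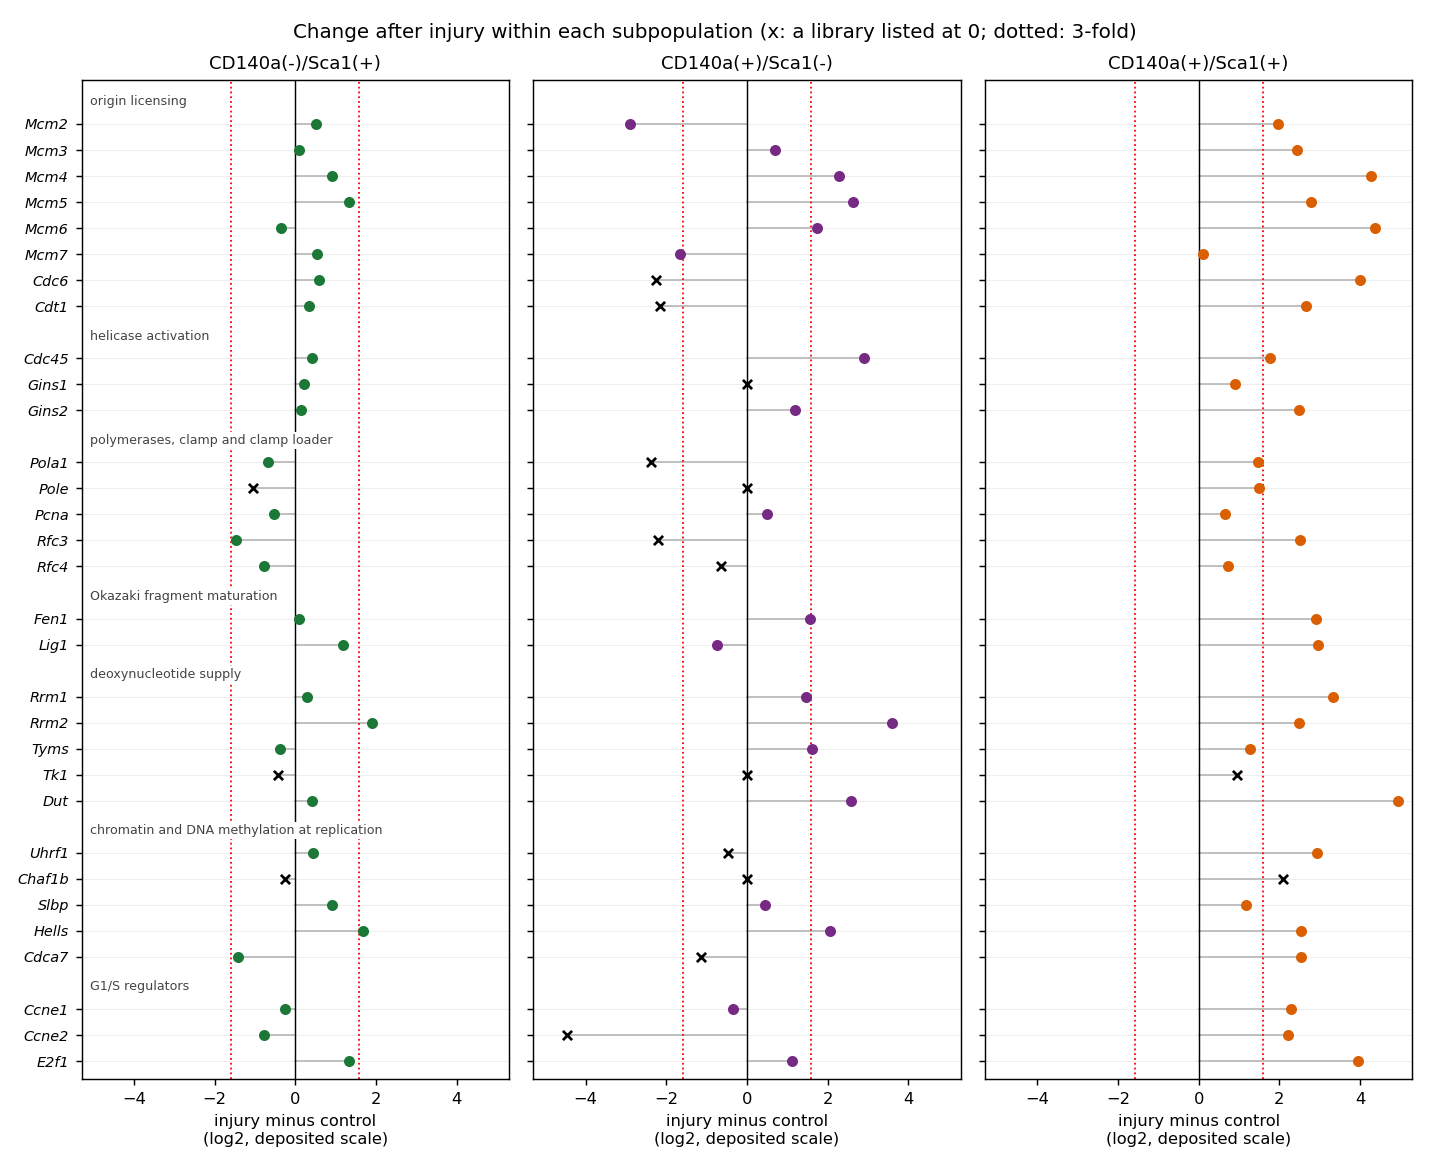
Injury minus control on the deposited log2 scale for each of the 31 genes, 1 panel per subpopulation, with dotted lines at a 3-fold change and crosses where a library is listed at 0. The points of CD140a(+)/Sca1(+) cells all lie above 0, up to 4.94 for Dut, while those of CD140a(+)/Sca1(-) cells spread between -4.45 for Ccne2 and 3.59 for Rrm2.

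**Figure D3:**
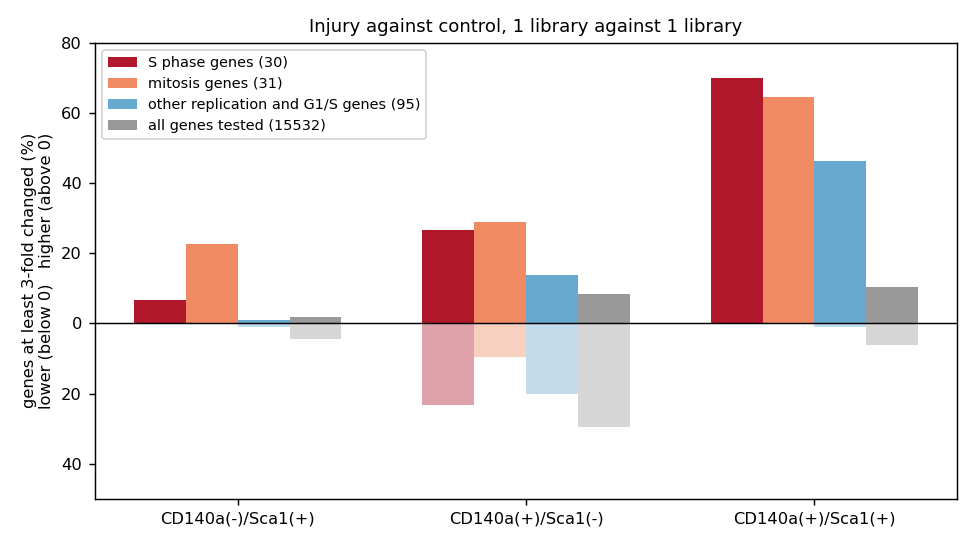
Percent of genes at least 3-fold higher (above 0) and lower (below 0) after injury in each subpopulation, for the 30 tested S phase genes, 31 mitosis genes, 95 other replication and G1/S genes and all 15532 genes tested. In CD140a(+)/Sca1(+) cells the S phase bar reaches 70.0% higher, the mitosis bar 64.5% and that of the other replication and G1/S genes 46.3%, against 10.4% of all genes.

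The response of each subpopulation was also set against the mean response of the other 2 in limma, with 1 residual degree of freedom. The spread in this contrast comes from the difference between the other 2 subpopulations, so the response of a subpopulation cannot be told apart from that of its 1 pair of libraries. For CD140a(-)/Sca1(+) cells 0 of the 30 members were called above (background 0.135%) and 0 below (0.502%). For CD140a(+)/Sca1(+) cells 5 members were called above, where the background was 1.82%, and 0 below (0.129%). They were Cdc6 (difference 4.83), Ccne2 (4.82), Rfc3 (4.36), Cdca7 (3.81) and Mcm6 (3.69), each with an adjusted p of 0.998 in limma. Set against CD140a(-)/Sca1(+) cells alone, which leaves out the library that stands apart and allows no test, the response of CD140a(+)/Sca1(+) cells was at least 3-fold larger for 19 of the 30 members, where the background was 15.9%, and 3-fold smaller for 0 (5.4%). The same 5 members were among the 19, with differences of 2.97 to 4.74.

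For CD140a(+)/Sca1(-) cells 6 members were called below the mean of the other 2, where the background was 18.7%, and 0 above (3.54%). The 6 were Ccne2 (difference -5.17), Cdc6 (-4.53), Mcm2 (-4.14), Cdt1 (-3.67), Lig1 (-2.82) and Pola1 (-2.77). Over all genes 268 (1.73%) had an adjusted p under 0.05 in this contrast, and the lowest adjusted p of a member was 0.0540 in limma, for Ccne2. Cdc6, Cdt1, Pola1 and Ccne2 are listed at 0 in the injured library of that pair, and Mcm2 had an estimated 2.64 reads in it. A count of 6 in 30 is near the background share of this contrast.

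In that library 11 of the 30 tested members were listed at 0, where 55.3% of all genes tested were. Divided by the mean level in the other 5 libraries, 4 of 4 members under 5 normalized counts were at 0, against 90.04% of all genes tested at that level, and 0 of 2 between 5 and 20, against 73.2%. Between 20 and 50 it was 4 of 6 members, against 52.6% of all genes tested at that level, and between 50 and 100 it was 3 of 8, against 32.8%. From 100 to 200 it was 0 of 7, against 15.3%, and from 200 it was 0 of 3, against 2.91%. The members read most in the other libraries were thus read there too.

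**Figure D4:**
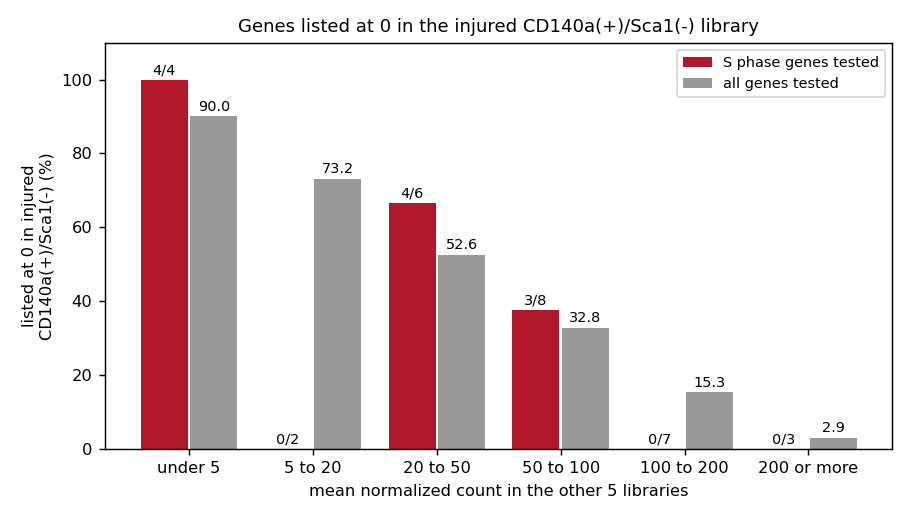
Share at 0 (percent) in that library, injured CD140a(+)/Sca1(-), by mean normalized count in the other 5 libraries, for the 30 tested S phase genes (counts above the bars) and all genes tested (percent above the bars). The share of all genes falls to 2.91% at 200 normalized counts or more, and no S phase gene above 100 is listed at 0.

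A wider list held 98 other replication and G1/S genes, of which 95 were tested. In limma 4 were called higher and 1 lower, where 2.3% and 3.46% of all genes tested were, and the median change was 0.42, against -0.33 over all genes tested. Those higher included Pclaf, a partner of PCNA (3.22, SE 0.84), Lmnb1, a lamin of the nuclear envelope (2.04, SE 0.69), and Dbf4, the activator of the Cdc7 kinase that fires origins (1.95, SE 0.53). The gene called lower was Rb1, the retinoblastoma protein that restrains E2F (change -1.82, SE 0.60).

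Pclaf had 56.4 normalized counts in injured and 18.9 in control CD140a(-)/Sca1(+) cells, 130 against 7.07 in CD140a(+)/Sca1(-) cells and 357 against 0.883, or 1 read, in CD140a(+)/Sca1(+) cells. Rb1 had 10.2 against 21.0 in CD140a(-)/Sca1(+) cells, was listed at 0 against 31.5 in CD140a(+)/Sca1(-) cells, and had 7.42 against 56.5 in CD140a(+)/Sca1(+) cells. It was thus lower after injury in each pair, which held for 7 of the 95 genes of the wider list and 20.2% of all genes tested. Of the genes of fork protection, mismatch repair and recombination 0 of 17 were called. The most abundant of them was Tipin, a fork protection factor, with 110 against 164, 225 against 64.1 and 743 against 30.8 normalized counts in the same order of subpopulations (1.76, SE 0.91, limma adjusted p = 0.655). Within CD140a(+)/Sca1(+) cells 44 of the 95 were at least 3-fold higher, against the 10.4% of all genes given above, and the median change there was 1.35.

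Of 31 tested mitosis genes 6 were called higher and 0 lower in limma, where 2.3% and 3.46% of all genes tested were, and the median change was 0.96. The largest changes were those of Cdk1, the kinase that starts mitosis (3.32, SE 0.53), Top2a, which untangles chromosomes (3.32, SE 0.54), Tpx2, a spindle assembly factor (2.78, SE 0.61), and Cenpe, a kinetochore motor (2.36, SE 0.56). Cdk1 had 219 normalized counts in injured and 12.6 in control CD140a(-)/Sca1(+) cells, 104 against 9.03 in CD140a(+)/Sca1(-) cells and 845 against 41.0 in CD140a(+)/Sca1(+) cells. In CD140a(-)/Sca1(+) cells 7 of the 31 mitosis genes were at least 3-fold higher, against 2 of the 30 S phase genes and 1.97% of all genes tested, and the median changes of the lists there were 0.89 and 0.24. The difference between the lists was not tested.

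Markers of other cells also differed between the states. The summed normalized counts of 18 leukocyte markers were 268 to 930 in injured and 95.9 to 777 in control libraries, with S100a9, Ly6g and Nkg7 at 0 in every injured library. The highest sum was in injured CD140a(+)/Sca1(-) cells, where Lyz2 had 249, Tyrobp 222 and Csf1r 175 normalized counts. Of the genes of the gated leukocyte markers, Itgam, which encodes CD11b, had 27.5 there, its highest value in any library. Ptprc, which encodes CD45, was listed at 0 in both the injured and the control library of that subpopulation. The sums of 10 endothelial markers were 10.4 to 202 in injured and 436 to 2515 in control libraries, with Pecam1 at 0 to 1.51 in the injured ones. Those of 11 muscle markers were 195 to 665 and 137 to 278, with Des at 478 in injured CD140a(+)/Sca1(-) cells. Chrna1, of the same list, had 158 normalized counts in injured and 65.6 in control CD140a(-)/Sca1(+) cells. It had 187 against 115 in CD140a(+)/Sca1(-) cells and 143 against 191 in CD140a(+)/Sca1(+) cells. Pax7, Myf5 and Myod1 were at 0 in every injured library and at 11.5 or less in the control ones. Sums of 8 pericyte and smooth muscle markers were 406 to 1083 and 582 to 1036, and of 6 Schwann cell markers 2.41 to 16.6 and 43.4 to 1761. The injured CD140a(+)/Sca1(+) library, where the S phase genes were highest, had the lowest leukocyte and muscle sums of the injured libraries, 268 and 195, and the highest endothelial, pericyte and smooth muscle, and Schwann cell sums of them, 202, 1083 and 16.6. In the control CD140a(+)/Sca1(+) library, the other side of that pair, the sum of 8 markers of the sorted stromal cells was 3703. The other controls had 7820 and 12437. Its endothelial sum, 2515, was the highest of all libraries, and its muscle sum, 278, the highest of the controls. Its leukocyte sum, 95.9, was the lowest of the controls, and its Schwann cell sum, 372, lay between theirs. The part of these other cells in the changes of the S phase genes was not tested.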

How the data were processed

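Stromal cells of 3 subpopulations were measured in injured and control muscle, 1 library each. The authors made QuantSeq 3' libraries, sequenced them on an Ion Proton, trimmed reads (FastX-Toolkit), used STAR and BRB-seqtools with genome GRCm38 (mm10), and normalized with DESeq2. The values that the authors deposited are log2 values with a shared floor of 2.57, as a variance stabilizing transformation of counts by the authors gives. They were inverted to normalized counts, whose steps at low levels give the worth of 1 read. Of the low values, 55.9% to 63.8% per library lay within 0.02 reads of a whole number, and 11 of the 31 members had whole reads in all 6 libraries, so whole reads were not recovered and no count model was run. Where the authors' counts gave no read, a gene is listed at 0. Poisson intervals (95%) rest on estimated reads and hold counting error alone.

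Injury was tested with limma 3.58.1 (R 4.3.3) on the deposited log2 values, with the subpopulation as block (prior degrees of freedom 4.11, residual 2). Pairs come from the subpopulation in the labels. P-values then measure only the spread between subpopulations, since no subpopulation has a second library of the same state. A gene entered the test if its 80th percentile on the linear form reached 8, the limit in the study, which left 15532 of 22483. That form has a floor of 5.93, so genes with few reads passed and are part of every background share. Of the 15532 genes, 4229 had a mean under 5 normalized counts in the 5 libraries other than injured CD140a(+)/Sca1(-). The same limit of 8 set on normalized counts left 10734 genes. Fitted changes use the floor for a gene listed at 0, so they are no bounds. The Benjamini-Hochberg adjustment ran over all genes tested. The study's text and its gene list state different p thresholds with the same fold. Calls use the laxer one, 0.05, and the stricter one, 0.01, was tried after seeing the data. The fit was tested on simulated data. Gene positions are from GENCODE for GRCm38, and 22453 identifiers had a symbol. All 31 members are named. Members called and Mcm2 to Mcm7 are given in full, and of each other list up to 4 called genes with the largest change, or the most abundant where none was called. A gene that this rule would name is not reported here. Members and lists were chosen with earlier results of these data known. Alternatives changed the scale, filter, scaling, variance prior, block and pairs, and counts without the CD140a(+)/Sca1(-) libraries were chosen after seeing the data. Further steps used Python 3.11.15 with numpy 2.4.6 and pandas 2.3.3.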

Additional observations from a re-analysis of the deposited data

Results flagged for a closer look

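The following differences drew attention because the injury response of 1 subpopulation differed from the mean response of the other 2 in limma, at an unadjusted p under 0.05 and a difference of at least 3-fold on the log2 scale. Each contrast has 1 residual degree of freedom and takes its spread from the other 2 subpopulations, so a subpopulation cannot be told apart from its 1 pair of libraries, and none of these members had an adjusted p under 0.05 over all genes tested.

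In CD140a(+)/Sca1(-) cells the response lay below that of the other subpopulations by a difference of -5.17 for Ccne2, -4.53 for Cdc6, -4.14 for Mcm2, -3.67 for Cdt1, -2.82 for Lig1 and -2.77 for Pola1. Of all genes tested, 18.7% were called below in this contrast, and Cdc6, Cdt1, Pola1 and Ccne2 are listed at 0 in the injured library of the pair.

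In CD140a(+)/Sca1(+) cells the response lay above that of the other subpopulations by 4.83 for Cdc6, 4.82 for Ccne2, 4.36 for Rfc3, 3.81 for Cdca7 and 3.69 for Mcm6, where 1.82% of all genes tested were called above. Cdc6, Ccne2, Rfc3 and Cdca7 are at 0 in injured CD140a(+)/Sca1(-) cells, which enter the mean of the others. Against CD140a(-)/Sca1(+) cells alone, with no test, the differences of these 5 were 3.42 for Cdc6, 2.97 for Ccne2, 3.99 for Rfc3, 3.96 for Cdca7 and 4.74 for Mcm6.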

How the results depend on the processing

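Mcm5, Rrm2 and Hells kept their call under all 12 other fits and at the stricter p under 0.01, chosen after seeing the data. At that p the members called higher numbered 3, the other replication and G1/S genes 2 higher and 0 lower, and the members above in CD140a(+)/Sca1(+) cells 0. The count of 8 members called higher became 3 with no filter and 3 with the unmoderated paired test (the same 3 genes), and lay between 3 and 11 when a pair was left out, with the lowest without the CD140a(+)/Sca1(+) pair and the highest without the CD140a(+)/Sca1(-) pair. The count of 0 members called lower lay between 0 and 1 (Rfc3, without the CD140a(+)/Sca1(+) pair). No replicate block, that is, the fit without the pairing by subpopulation, gave 8 members higher and 0 lower, with Mcm6 in and Cdc45 out. Among those 12 fits Mcm4 and Dut lost the call in 3, E2f1 in 4, and Cdc45 and Rrm1 in 7, while Mcm6 gained it in 5. Mcm2 turned to 0.48 with quantile normalization, and with a pair left out lay between -1.19 and 1.25, while Mcm7 lay between -0.77 and 0.33, both highest without the CD140a(+)/Sca1(-) pair. No member had an adjusted p under 0.05 in limma under any setting (lowest 0.138, Rrm2, quantile normalization), whereas for the genes as a whole a count of 0 became 15 with the filter on normalized counts, 10 with quantile normalization, 95 with a trend and 73 without the CD140a(+)/Sca1(-) pair. The median change of all genes, -0.33, was -0.58 on log2(normalized count + 1) and 0.0044 with quantile normalization, where members had 0.91 and 1.17. Genes called higher and lower over the table numbered 357 and 537 in the reported fit, 459 and 440 with quantile normalization, 301 and 866 on log2(normalized count + 1) and 456 and 412 without the CD140a(+)/Sca1(-) pair.

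For the other replication and G1/S genes, the 4 called higher became 2 with no filter and 2 unmoderated, and 2 to 8 when a pair was left out; the 1 called lower became 0 with no filter, quantile normalization, a trend and the unmoderated test, and 0 to 1 when a pair was left out. The 6 mitosis genes became 12 with quantile normalization, 3 unmoderated and 4 to 10 when a pair was left out. In the contrasts between subpopulations, members below in CD140a(-)/Sca1(+) cells became 1 with no filter and 1 with quantile normalization instead of 0. Those below in CD140a(+)/Sca1(-) cells became 1 with no filter and 3 with quantile normalization instead of 6. Those above in CD140a(+)/Sca1(+) cells became 2 on log2(normalized count + 1), 9 with quantile normalization, 3 with 75th percentile scaling, 3 with median scaling and 2 with a trend instead of 5. Within pairs, members at least 3-fold lower became 4 instead of 0 in CD140a(-)/Sca1(+) cells on log2(normalized count + 1) and 1 instead of 7 in CD140a(+)/Sca1(-) cells with quantile normalization. The cause of these shifts was not tested.

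At the depth of these libraries 3 reads equal 2.94 normalized counts in injured CD140a(+)/Sca1(-) cells and 2.65 in control CD140a(+)/Sca1(+) cells, the shallowest of each state. There is no second library of any subpopulation and state.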
